A study of Mus musculus with 21 samples.

Results

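Arterial endothelial genes were followed through endothelial cells of a mouse mammary tumour, with and without the adaptor protein Shb. The genes were the 9 rows of the expression table, of 45706 in all, whose symbol was Gja4, Gja5, Efnb2, Sox17, Bmx, Sema3g, Mgp, Clu or Alpl, and all 9 were found. The rule names them and uses no measured value. None of the 9 differed between the genotypes at an adjusted p under 0.05, which 0.00741% of all tested genes reached. 5 of them, Efnb2, Sox17, Sema3g, Gja5 and Gja4, varied together over the 21 libraries, with r of at least 0.909 to the mean of general endothelial markers, and less closely without 3 libraries low in the sort marker. The r of these 5 genes with venous markers was as high, 0.890 to 0.959 over all libraries. Over all libraries Clu, Alpl and Bmx were less like the 5 genes, and Mgp and Clu differed between the experiments, as did 29.1% of all tested genes.

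Tumours of E0771.lmb, a mouse mammary tumour cell line, were grown in adult mice that had received tamoxifen, per the labels' protocols, and were taken 14 to 16 days after the tumour cells were injected. The KO mice were Shb iECKO, Shb flox/flox; Cdh5-CreERt2, in which the Cdh5 promoter, active in endothelium, drives a Cre that tamoxifen switches on to delete Shb. The controls are called wild type, and the labels do not say whether they carried the floxed alleles or the Cre. A further line, Shb ICKO, with Shb flox/flox and Vav1-cre, in which a promoter of blood cells drives the Cre, is mentioned as an alternative host but given to no sample. The same text lists CD45+ cells taken with magnetic beads as a step ahead of the sort. Cells positive for CD31, the product of Pecam1, were sorted from the digested tumours, and total RNA was sequenced from 11 WT and 10 KO samples in 4 experiments. The WT and KO libraries numbered 3 and 2 in experiment 1, 3 and 4 in experiment 2, 2 and 2 in experiment 3, and 3 and 2 in experiment 4. The samples came from 9 WT and 8 KO tumours, with no record of which samples share one. Part of the spread behind each p-value may thus be that between samples of 1 tumour.

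Levels are in TPM, a per-length abundance in which every library has the same total, so the sequencing depth behind a value is unknown. Between 12178 and 20526 genes stood above 0 per library, and mitochondrial genes took 1.27% to 23.0% of the TPM. Shb was lower in KO by a log2 difference of -0.91 (two-sided exact permutation p = 0.0223 over 21000 arrangements within experiments), and its adjusted p over all genes in limma was 0.820. The exact p was above 0.05 without experiment 2 (0.227), without experiment 4 (0.165), without KO replicates 3a and 3b (0.0688), without the 3 libraries lowest in Pecam1 (0.0748) and with a replicate block (0.112). The differences of Shb in experiments 1 to 4 were 0.29, -1.59, -0.061 and -1.85, so Shb does not set the libraries labelled KO in experiments 1 and 3 apart from WT. The sort marker Pecam1 (median 1235 TPM) was low in 3 libraries: WT replicate 1 of experiment 2 with 461 TPM, and from experiment 4 KO replicate 2 with 242 TPM and WT replicate 2 with 95.04 TPM. The other 18 libraries held 710 to 1960 TPM. A pair of columns carries 1 header, KO replicate 3 of experiment 2, and is called 3a and 3b here. A KO replicate 3 of experiment 4 is among the sample titles but heads no column, so where 3a and 3b belong was not settled.

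Arteries and veins are lined by endothelial cells with different gene programmes, set early in development by VEGF and Notch signalling and by SOXF transcription factors, and maintained in part by blood flow. Ephrin-B2 on arterial cells and its receptor EphB4 on venous cells are the classical pair that separates both sides of the circulation. Arterial cells are further coupled by their own set of connexins and secrete matrix and guidance proteins. In tumours the vessel hierarchy is irregular, and arterial cells are a minority of the endothelium. In RNA from a pool of sorted cells, fewer arterial cells and less RNA per arterial cell cannot be told apart.

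The DNA just upstream of 4 members is shown because these 4 genes varied together across the libraries. Each window is the 250 bases before a start of the gene in RefSeq on GRCm38.p6, written 5′ to 3′ on the gene's strand. The Gja5 window lies inside the gene's GENCODE span, chr3:96904693-97077416, so it precedes an internal start and not the first base of that span. The Sema3g window runs slightly past the GENCODE start of that gene, at 31217860. Capitals mark the core letters read by 3 factor families of the arterial programme, on either strand: ACAAT for SOX factors, TGGGAA for RBPJ, the DNA-binding partner of Notch, and AGGAA for ETS factors. None of these motifs lies inside another. RefSeq entries were matched for 6 members, Gja4, Gja5, Efnb2, Bmx, Sema3g and Alpl.
Gja4, chr4:127314040-127314289, minus strand: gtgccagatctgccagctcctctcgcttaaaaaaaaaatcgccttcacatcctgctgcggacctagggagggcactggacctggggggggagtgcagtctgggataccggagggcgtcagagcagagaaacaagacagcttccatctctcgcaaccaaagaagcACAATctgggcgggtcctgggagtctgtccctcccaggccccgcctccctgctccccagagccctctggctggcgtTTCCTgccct
Gja5, chr3:97032152-97032401, plus strand: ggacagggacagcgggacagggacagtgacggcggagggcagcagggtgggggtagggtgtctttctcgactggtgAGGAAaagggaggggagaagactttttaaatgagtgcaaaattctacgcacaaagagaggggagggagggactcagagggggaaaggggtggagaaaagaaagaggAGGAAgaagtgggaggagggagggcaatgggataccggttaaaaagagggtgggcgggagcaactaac
Sema3g, chr14:31217623-31217872, plus strand: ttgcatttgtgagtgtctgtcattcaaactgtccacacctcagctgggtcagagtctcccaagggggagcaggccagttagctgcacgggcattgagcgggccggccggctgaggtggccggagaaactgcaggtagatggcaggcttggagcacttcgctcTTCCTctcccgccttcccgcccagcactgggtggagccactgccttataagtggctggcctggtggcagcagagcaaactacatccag
Efnb2, chr8:8661243-8661492, minus strand: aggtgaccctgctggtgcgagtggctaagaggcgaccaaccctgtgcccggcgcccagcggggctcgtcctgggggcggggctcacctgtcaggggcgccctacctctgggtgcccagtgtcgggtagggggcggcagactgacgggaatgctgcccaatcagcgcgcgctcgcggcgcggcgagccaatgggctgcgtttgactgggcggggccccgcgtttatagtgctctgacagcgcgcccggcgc

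The 4 windows share no arrangement of these letters. The Gja4 window held ACAAT once, 86 bases before the start, and AGGAA once on the other strand at -10. That of Gja5 held AGGAA at -174 and -68, and that of Sema3g held it at -88 on the other strand. In the Efnb2 window, where G and C made up 72.0% of the bases, none of the 3 motifs was present. The G and C share was 61.2% in Gja4, 60.4% in Sema3g and 56.4% in Gja5, against a median of 52.4% over 32851 promoter windows of the same length. Over those windows ACAAT occurred in 27.7%, TGGGAA in 21.6% and AGGAA in 60.3%, so single matches are common. The Bmx window, chrX:164258194-164258443 on the minus strand, was the only one of the members' windows with all 3 motifs: TGGGAA at -178, AGGAA at -62 and ACAAT at -52 and -32. In addition 4 motifs were searched on both strands: CACCC for KLF factors (52.0% of windows), GATAA for GATA factors (22.6%), GTAAACA for FOX factors (3.2%) and the TATA box TATAAA (12.4%). Of these the Gja5 window held CACCC 4 times, those of Sema3g and Efnb2 held it once, and the Efnb2 window held TATAAA on the other strand at -30.

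In WT libraries the members spanned a wide range of levels per length. Efnb2 had the highest mean, followed by Sox17, Clu, Gja4, Sema3g, Gja5, Mgp, Alpl and Bmx. By mean WT level Efnb2 ranked 723 among the 45706 genes of the table, and Bmx ranked 11822. Neighbours in this order were compared within each WT library by the log2 ratio of TPM + 1, which narrows ratios that involve low genes. The ratio of Efnb2 to Sox17 was 0.27 ± 0.38 (SD, n = 11), with Efnb2 higher in 8 of 11 libraries, so the order of this pair lay within the spread. Gja4 was above Sema3g in 10 of 11 libraries with a ratio of 0.40 ± 0.44 (SD, n = 11), also within it. Clu had no fixed place: its ratio to Gja4 was 0.65 ± 1.44 (SD, n = 11). The steps from Gja5 down to Mgp (1.06 ± 0.75) and from Mgp down to Alpl (1.77 ± 1.16, both SD, n = 11) exceeded the spread.

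**Figure D1:**
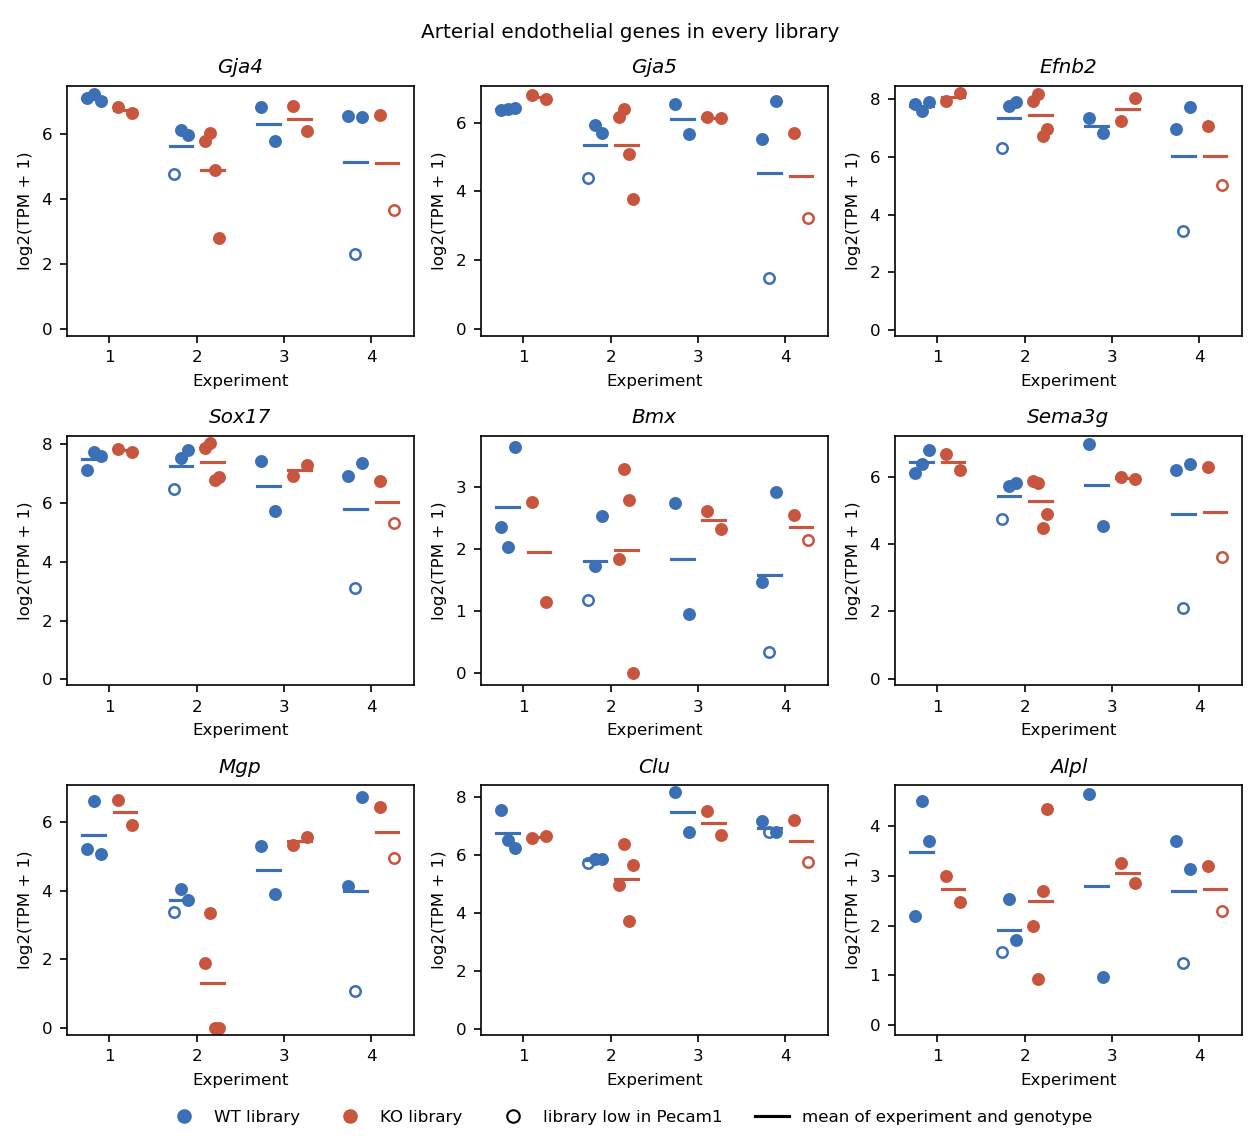
Level of each arterial gene, as log2(TPM + 1) on the vertical axis, in every library by experiment, with WT in blue and KO in red, open circles for the 3 libraries low in Pecam1 and bars for the mean of each experiment and genotype. The WT and KO points overlap for every gene over the whole series, and for Mgp the KO points lie below the WT points in experiment 2 and above them in experiment 3.

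Gja4 and Gja5 encode connexins, the channel proteins of the gap junctions that couple arterial endothelial cells. Gja4 (ENSMUSG00000050234, chr4:127311421-127314039, minus strand) ran from 3.97 TPM through a median of 91.7 TPM to 150.06 TPM in WT, and from 5.92 TPM through 66.3 TPM to 116.7 TPM in KO. The 3 WT libraries of experiment 1 were the highest, at 127.9 to 150.06 TPM, and the 4 lowest values were those of the 3 libraries low in Pecam1 and KO replicate 3b of experiment 2. The genotype difference, KO minus WT with experiment as a term in limma, was -0.31 on the log2(TPM + 1) scale (SE 0.49, 95% interval -1.31 to 0.70, adjusted p = 0.955). Gja5 (ENSMUSG00000057123, chr3:96904693-97077416, plus strand) lay at 1.77, 59.9 and 98.0 TPM in WT and at 8.41, 69.8 and 110.2 TPM in KO (lowest, median and highest). Its highest values came from the 2 KO libraries of experiment 1, 110.2 and 101.6 TPM, just above the highest WT library at 98.0 TPM. The difference was 0.078 (SE 0.47, 95% interval -0.90 to 1.05, adjusted p = 0.989, limma). On the opposite strand Gja5 overlaps Gpr89, which had a median of 13.7 TPM. Whether the counting used strand is not given in the sources used here, so some reads may be shared. Of the 15 other connexin genes, all in the table, 2 passed the filter on low values. Gja1, the connexin also found in smooth muscle and many other cells, had a WT mean of 405 ± 163 TPM (SD, n = 11) and a KO mean of 428 ± 210 TPM (SD, n = 10), and Gjc1 had 10.8 ± 5.42 and 7.67 ± 5.02 TPM. Neither passed the test.

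Efnb2 (ENSMUSG00000001300, chr8:8617434-8661242, minus strand) encodes ephrin-B2, the membrane-bound arterial ligand of EphB receptors. It was the most abundant member per length, at 9.73, 192 and 242 TPM in WT and 31.6, 198 and 299 TPM in KO (lowest, median and highest). All 3 libraries low in Pecam1, at 9.73 to 78.7 TPM, lay below the other 18, which ran from 105.5 to 299 TPM. The groups overlapped, and the log2 difference was 0.22 (SE 0.40, 95% interval -0.61 to 1.05, adjusted p = 0.966, limma). Its partners were taken from a list of 8 other ephrin-B and Eph genes, of which 4 passed the filter and none passed the test. Ephb4, the venous receptor, had a WT mean of 136 ± 68.4 TPM (SD, n = 11) and a KO mean of 124 ± 51.7 TPM (SD, n = 10), with a log2 difference of -0.044. Efnb1, another ephrin-B ligand, stood at 50.6 ± 20.3 and 27.4 ± 9.09 TPM, with a log2 difference of -0.76 (SE 0.23) that had p = 0.00364 before adjustment and an adjusted p = 0.820 in limma.

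Sox17 (ENSMUSG00000025902, chr1:4490931-4497354, minus strand) is a SOXF transcription factor of arterial identity. Its TPM were 7.66, 163 and 222 in WT and 38.9, 138 and 262 in KO (lowest, median and highest). The log2 difference was 0.27 (SE 0.39, 95% interval -0.54 to 1.09, adjusted p = 0.944, limma), and it was above 0 in each of experiments 1 to 4 (0.29, 0.12, 0.54 and 0.24). These differences are smaller than the spread between libraries of one group. Without WT replicate 2 of experiment 4 the pooled difference was 3.19e-07, and without the 3 libraries low in Pecam1 it was 0.064. A noncoding gene on the opposite strand, Gm37587, overlaps Sox17 and had a median of 1.25 TPM. The other SOXF factors were also abundant per length and did not pass the test: Sox18 had a WT mean of 308 ± 163 TPM (SD, n = 11) and a KO mean of 298 ± 157 TPM (SD, n = 10), and Sox7 had 110 ± 51.7 and 137 ± 65.8 TPM.

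Bmx (ENSMUSG00000031377, chrX:164192842-164258193, minus strand) encodes a Tec family tyrosine kinase of arterial and endocardial endothelium. It was the member with the lowest level, 0.26, 3.08 and 11.4 TPM in WT and 0, 4.42 and 8.69 TPM in KO (lowest, median and highest). KO replicate 3b of experiment 2 is listed at 0, although Efnb2 stood at 124 TPM and Sox17 at 117 TPM in that library. The log2 difference was 0.19 (SE 0.44, 95% interval -0.71 to 1.10, adjusted p = 0.976, limma). It was -0.72 in experiment 1 and 0.17, 0.63 and 0.78 in experiments 2 to 4. Of the other 4 Tec kinases 2 passed the filter, and Tec itself had a WT mean of 15.02 ± 6.69 TPM (SD, n = 11) and a KO mean of 11.6 ± 9.19 TPM (SD, n = 10) without passing the test.

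Sema3g (ENSMUSG00000021904, chr14:31217860-31230352, plus strand) encodes a secreted semaphorin of arterial endothelium that binds neuropilin receptors. Its values were 3.34, 68.2 and 127 TPM in WT and 11.2, 59.1 and 103 TPM in KO (lowest, median and highest). The log2 difference was -0.00083 (SE 0.44, 95% interval -0.92 to 0.92, adjusted p = 1.00, limma), the smallest of the 9, and changed sign under many of the alternatives. Of 13 other genes of the class 3 semaphorins and their receptors 10 passed the filter and none passed the test, with 4 differences above 0 and 6 below. Sema3f was the most abundant semaphorin among them, with a WT mean of 480 ± 233 TPM (SD, n = 11) and a KO mean of 636 ± 280 TPM (SD, n = 10). Those with p under 0.05 before adjustment, 1 in each direction, were Plxna3 and Sema3a. Plxna3, a plexin receptor, stood at 4.43 ± 6.65 and 0.839 ± 0.945 TPM, with a log2 difference of -1.10 (p = 0.0302 before adjustment, adjusted p = 0.820, limma). Sema3a stood at 19.7 ± 12.8 and 38.4 ± 22.2 TPM, with a log2 difference of 0.84 that had p = 0.0309 before adjustment and an adjusted p = 0.820 in limma.

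Mgp (ENSMUSG00000030218, chr6:136872435-136875823, minus strand) encodes matrix Gla protein, a secreted inhibitor of mineralization that also binds bone morphogenetic proteins. Over all 21 libraries it had the widest spread of the members within an experiment and genotype (SD 1.47 on the log2 scale), and without the 3 libraries low in Pecam1 Alpl was wider (1.28 against 1.19). In experiment 2 the WT libraries stood at 9.41, 15.7 and 12.2 TPM, and the KO libraries at 2.73 and 9.32 TPM with replicates 3a and 3b at 0. Every KO value there lay below every WT value, by a narrow margin between 9.32 and 9.41 TPM, and KO replicates 3a and 3b have no settled experiment. In experiment 1 the order of the means was the other way, 80.0 TPM over the 2 KO libraries (59.9 and 100.07) and 55.4 ± 36.2 TPM (SD, n = 3) over the WT libraries (36.2, 97.1 and 32.9). Experiment 3 had 39.6 and 46.8 TPM in KO and 38.8 and 14.1 TPM in WT, so there both KO values lay above both WT values. In experiment 4 the KO libraries stood at 85.9 and 30.1 TPM and the WT libraries at 16.7, 1.12 and 106.0 TPM. The log2 differences of experiments 1 to 4 were thus 0.65, -2.41, 0.85 and 1.71, and the pooled one was -0.087 (SE 0.63, 95% interval -1.40 to 1.23, adjusted p = 0.991, limma). The test that the genotype difference varied between experiments gave an unadjusted p = 0.0548 and an adjusted p = 0.9996 for Mgp in limma. Of the 9 members 0 had an unadjusted p under 0.05 in that test, which 3.84% of all tested genes had, and 0% of genes passed after adjustment. Without KO replicates 3a and 3b the pooled difference was 0.52, and without experiment 2 it was 1.08.

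Clu (ENSMUSG00000022037, chr14:65968483-65981547, plus strand) encodes clusterin, a secreted chaperone made by many cell types besides arterial endothelium. It ran from 52.02 through 109 to 290 TPM in WT and from 12.2 through 89.0 to 180 TPM in KO (lowest, median and highest). The KO mean was below the WT mean on the log scale in each experiment, by log2 differences of -0.14, -0.64, -0.40 and -0.44 in experiments 1 to 4. The pooled difference of -0.43 (SE 0.29, 95% interval -1.02 to 0.16) had p = 0.148 before adjustment and an adjusted p = 0.842 in limma, the smallest p of the 9 members. The groups overlapped in every experiment. In experiment 2, for example, the KO libraries stood at 30.4, 82.5, 12.2 and 49.1 TPM and the WT libraries at 52.02, 57.2 and 57.8 TPM.

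Alpl (ENSMUSG00000028766, chr4:137741733-137796384, minus strand) encodes the tissue-nonspecific alkaline phosphatase, an enzyme of endothelial membranes and of mineralizing cells. Its values were low and scattered, at 0.94, 4.79 and 23.9 TPM in WT and 0.90, 5.88 and 19.3 TPM in KO (lowest, median and highest). The 2 WT libraries of experiment 3 alone held its highest and its lowest WT value, 23.9 and 0.94 TPM. The log2 difference was 0.085 (SE 0.48, 95% interval -0.91 to 1.08, adjusted p = 0.989, limma). Mgp and Alpl act on mineral from opposite sides, so 12 other genes of mineralization and of Gla protein processing were read as well. Of these 10 passed the filter and none passed the test, with 4 differences above 0 and 6 below. Bmp2 had a WT mean of 54.1 ± 32.9 TPM (SD, n = 11) and a KO mean of 76.7 ± 34.6 TPM (SD, n = 10), and the phosphate carrier Slc20a1 had 273 ± 185 and 362 ± 190 TPM. Lower in KO were Vkorc1, at 25.8 ± 13.5 and 20.6 ± 15.5 TPM (log2 difference -0.76), and Spp1, at 54.6 ± 123 and 10.4 ± 11.9 TPM (-1.02).

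Over the list, 0 of the 9 members had an adjusted p under 0.05 in limma between KO and WT, where 0.00741% of all 13503 tested genes (1 gene) had. None of the 9 had an unadjusted p under 0.05 either, against 5.88% of all tested genes, 4.93% lower and 0.948% higher in KO. All 9 members had passed the filter of at least 1 TPM in at least 10 libraries. The fitted differences lay above 0 for 5 members and below 0 for 4, with a median of 0.078, and the median over all tested genes was -0.11. WT and KO libraries overlapped for every member, as they did for all tested genes (0% did not overlap). Within single experiments such separation was common because the groups are small. In experiment 1, 3 members were apart, Gja4 with KO lower and Gja5 and Efnb2 with KO higher, as were 21.4% of all tested genes. Mgp was the 1 member apart in experiment 2 (6.54% of genes), with KO lower, and the 1 in experiment 3 (29.9%), with KO higher. In experiment 4 the count was 0 members and 20.7% of genes. Each of the 9 intervals reached to about 1 on the log2 scale on at least 1 side. Among all tested genes with an unadjusted p under 0.05, 128 were higher and 666 lower in KO. With each library shifted to a common median, which moves the median of all genes from -0.11 to -0.0063, the split was 521 higher and 474 lower, and still 0 members were among them. The 9 members then lay 7 above and 2 below 0, and with a common pan-endothelial mean 3 above and 6 below.

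**Figure D2:**
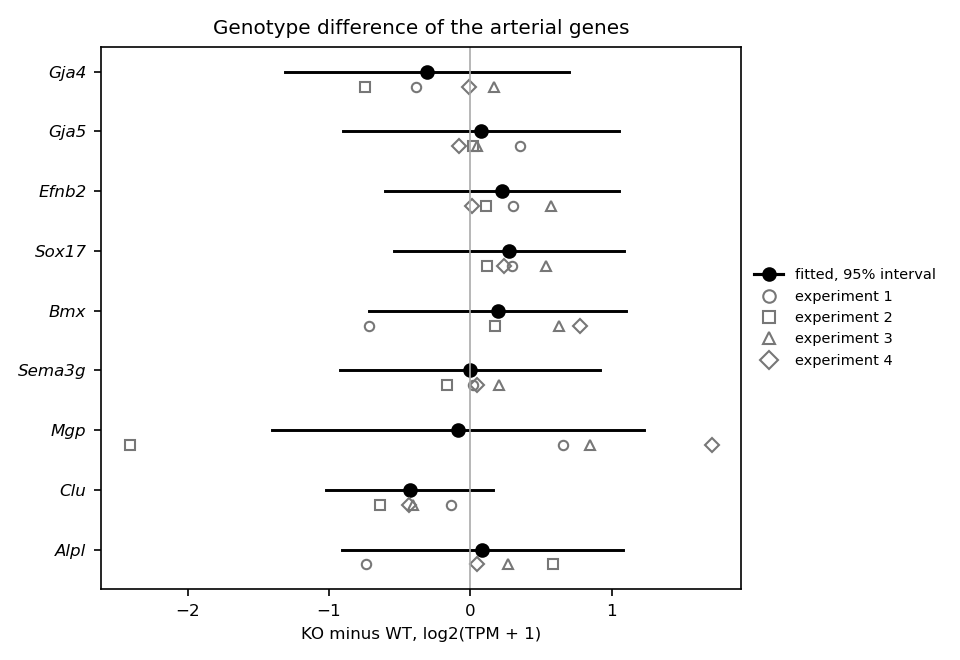
Difference between KO and WT in log2(TPM + 1) for each arterial gene, with the fitted value and its 95% interval in black and the differences within experiments 1 to 4 as open symbols. All 9 intervals include 0, and the symbols of Mgp are the farthest apart, from -2.41 in experiment 2 to 1.71 in experiment 4.

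The arterial programme around the 9 genes was read from 50 further genes, among them Notch receptors and ligands, their target genes, factors of flow and BMP signalling and arterial matrix genes. Of these 49 were in the table and 46 passed the filter. None passed the test in limma, with 24 differences above 0 and 22 below, a median of 0.011, and 3 unadjusted p under 0.05, all lower in KO, a direction and threshold that 4.93% of all tested genes met. The even split did not hold within single experiments. Differences above and below 0 numbered 33 and 13 in experiment 1, 11 and 35 in experiment 2, 39 and 7 in experiment 3, and 12 and 34 in experiment 4. With a common pan-endothelial mean the split of the list was 7 above and 39 below. The 3 genes were Fbln2, a fibulin of the elastic matrix, with a WT mean of 181 ± 56.3 TPM (SD, n = 11) and a KO mean of 102 ± 47.8 TPM (SD, n = 10), the taurine carrier Slc6a6 at 94.3 ± 33.3 and 57.2 ± 19.3 TPM, and Fbn1, fibrillin of the microfibrils, at 23.0 ± 6.63 and 14.3 ± 8.57 TPM. Their log2 differences were -0.87, -0.69 and -0.85, below 0 in all 4 experiments for each, and each had an adjusted p = 0.820. The most abundant genes of the list were Igfbp3, at 3180 ± 2001 TPM in WT and 3417 ± 1621 TPM in KO, and Hspg2, the basement membrane proteoglycan perlecan, at 918 ± 429 and 895 ± 401 TPM. Fbln2 and Fbn1 are also matrix genes of fibroblasts. In experiment 1, where Fbln2 had a difference of -0.55 and Fbn1 one of -0.089, 6 of the 7 tested fibroblast markers lay above 0. In experiments 2 and 3 all 7 lay below, with Fbln2 at -1.35 and -0.46 and Fbn1 at -1.31 and -0.83. In experiment 4, 2 lay above and 5 below, with Fbln2 at -0.82 and Fbn1 at -0.99.

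Other cell types were read from marker lists, since Mgp, Clu and Alpl are not restricted to endothelium. All 12 pan-endothelial markers were present, and their summed level ran from 575 through 7763 to 11666 TPM in WT and from 1670 through 9279 to 10896 TPM in KO (lowest, median and highest). Of these 12 markers 11 had a log2 difference above 0, with a median of 0.14, and none passed the test. Within experiments 1 to 4 the count above 0 was 9, 5, 12 and 11 of the 12. Markers of other compartments leaned the other way in the pooled fit. All tested genes had a median of -0.11, with unadjusted limma p under 0.05 for 4.93% lower and 0.948% higher in KO. All 7 tested fibroblast markers had differences below 0, with a median of -1.17 and 3 unadjusted p under 0.05, and their sum ran from 47.0 through 91.3 to 739 TPM in WT and from 23.9 through 41.9 to 185 TPM in KO. All 10 leukocyte markers had differences below 0, with a median of -1.36 and 8 unadjusted p under 0.05, and their sum ran from 55.3 through 208 to 4279 TPM in WT and from 37.8 through 51.0 to 219 TPM in KO. WT replicate 2 of experiment 3 held the highest sum of both lists, and the next highest leukocyte sum in WT was 589 TPM. Of 9 pericyte and smooth muscle markers 8 lay below 0 with a median of -0.60 and 3 unadjusted p under 0.05 (Rgs5, Acta2 and Pdgfrb), and the sum over the list ran from 100.3 to 1310 TPM in WT and from 146 to 1075 TPM in KO. No marker of these lists passed the test in limma. The part of these cells in the values of Fbln2, Fbn1 and Clu was not tested. Venous markers (9 tested, median -0.044) and capillary markers (7 tested, median -0.066) fell on both sides of 0, with 1 unadjusted p under 0.05 (Slc16a1, -0.88), and the venous gene Slc38a5 was listed at 0 in all libraries.

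Experiments differed more than genotypes. The F test of the experiment terms in limma called 29.1% of all tested genes, and 2 of the 9 members, Mgp (adjusted p = 0.0176) and Clu (adjusted p = 0.0112). The mean log2(TPM + 1) of Mgp was 5.90, 2.35, 5.04 and 4.68 in experiments 1 to 4, and that of Clu was 6.70, 5.46, 7.29 and 6.75, so both were lowest in experiment 2. For Efnb2 the means were 7.90, 7.41, 7.37 and 6.05 (adjusted p = 0.0661), and for Gja5 they were 6.53, 5.35, 6.12 and 4.51 (adjusted p = 0.0818). Bmx (adjusted p = 0.839) and Alpl (adjusted p = 0.573) were farthest from the threshold. The count rested on single libraries and on experiment 2: it was 5 of 9 without WT replicate 3 of experiment 4 (37.6% of all genes tested), 4 without WT replicate 1 of that experiment (28.1%), 0 without experiment 2 (0.0333%) and 0 with KO replicate 3a placed in experiment 4 (17.3%).

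Next, the way the members varied among libraries of the same experiment and genotype was described by Pearson r of log2(TPM + 1) after the mean of each experiment and genotype was removed. These r are descriptions over 21 libraries that can share a tumour. Gja4 and Gja5, both connexins, were most alike, with r = 0.968, followed by Sox17 and Sema3g with r = 0.967. Among the 5 genes Gja4, Gja5, Efnb2, Sox17 and Sema3g, every pair had an r of at least 0.874. Mgp was also close to this group, for example r = 0.884 with Gja5, and Bmx stood farther off, at 0.540 to 0.680 with the 5. Clu had r of 0.053 to 0.440 with the other members, and Alpl had 0.048 to 0.522.

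Most of these r were lower without the 3 libraries low in Pecam1. When they were left out, r was 0.521 for Gja4 and Efnb2, 0.622 for Efnb2 and Sema3g and 0.547 for Gja4 and Sema3g. Gja4 and Gja5 kept r = 0.906 over the other 18 libraries, and Sox17 and Sema3g kept r = 0.932. Among these 18, KO replicate 1 of experiment 4 is alone in its group, so it adds nothing to these r. Alpl turned negative with both connexins, -0.343 with Gja4 and -0.379 with Gja5. Thus the connexin pair and the pair of Sox17 and Sema3g were the closest with and without these libraries.

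**Figure D3:**
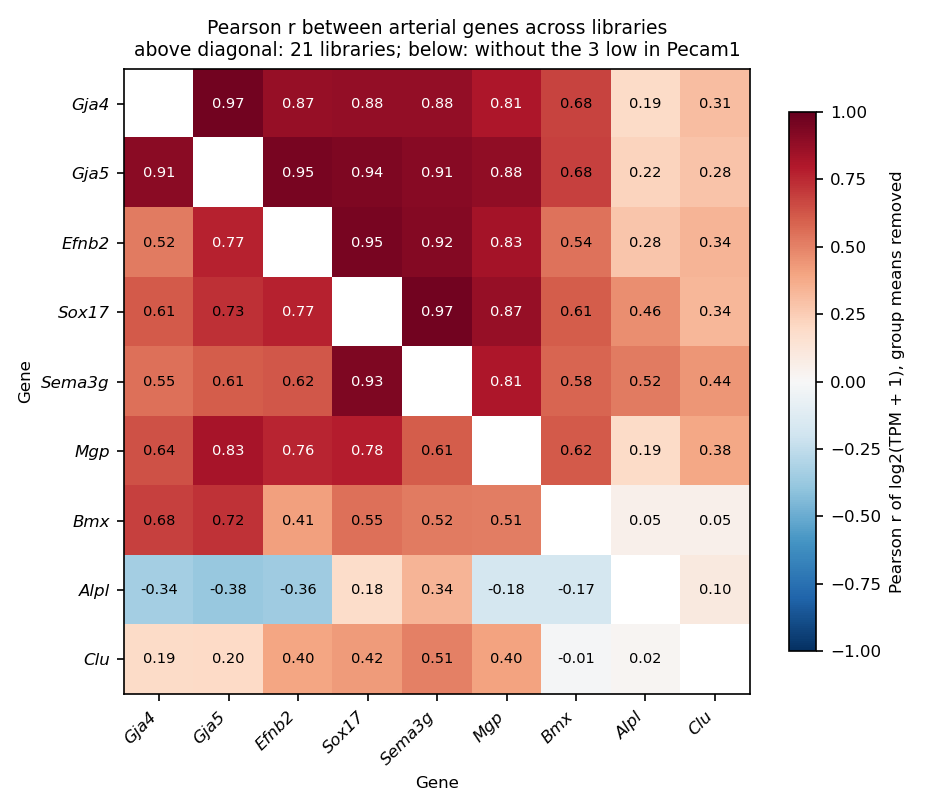
Pearson r between each pair of arterial genes, over 21 libraries above the diagonal and over the 18 libraries without the 3 low in Pecam1 below it, computed on log2(TPM + 1) after removal of the mean of each experiment and genotype. The first 6 genes form a block of high r above the diagonal, and below it the pairs Gja4 with Gja5 (0.91) and Sox17 with Sema3g (0.93) are the highest.

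The genes with the most similar pattern to each member were read from 8751 genes with a mean log2(TPM + 1) of at least 3. The nearest to Efnb2 were Gpr4, a proton-sensing receptor (r = 0.996), the adhesion scaffold Nedd9 (0.994) and Shroom4 (0.988), and r with Gpr4 was 0.972 without the libraries low in Pecam1. Sox17 was nearest to Ushbp1 (0.983), the protein kinase C gene Prkch (0.981) and Dock6 (0.981). Sema3g was nearest to Fbln5, a fibulin of elastic fibres (0.984), Tm4sf1 (0.982) and Tspan2 (0.981). Fbln5 and Tm4sf1 both belong to the wider arterial list. Gja4 was nearest to the membrane-type metalloprotease Mmp15 (0.977), with Gja5 and the Notch pathway ubiquitin ligase Neurl1b (both 0.968) next, and Gja5 was nearest to Armcx2 (0.976), Gvin1 (0.969) and Gja4. Mgp was nearest to Stmn2 (0.936), which is also in the wider list, then Unc13b (0.911) and Sox4 (0.896). The nearest genes of Clu (the phosphatase Pdp1, 0.862) and Alpl (Tmx2, 0.785) were less close, and the third for Alpl was Fabp4 (0.740), a capillary marker.

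Because the sort was made on CD31, the members were also set against Pecam1. Efnb2 stood at 8.62% to 20.2% of the Pecam1 level per length, with a median of 15.3%, and Sox17 at 6.02% to 19.1%, with a median of 13.4%. Sema3g ran from 2.62% to 9.22%, Gja5 from 1.15% to 8.05% and Gja4 from 0.536% to 13.5%. Clu covered 1.72% to 114%, and was above Pecam1 only in WT replicate 2 of experiment 4, where Clu stood at 109 TPM and Pecam1 at 95.04 TPM.

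The 5 co-varying genes also varied with the endothelial markers as a whole. Their r with the mean of the 12 pan-endothelial markers was 0.952 for Efnb2, 0.949 for Sema3g, 0.940 for Sox17, 0.932 for Gja5 and 0.909 for Gja4. Without the 3 libraries low in Pecam1 these were 0.647, 0.793, 0.723, 0.655 and 0.683. With the venous markers the 5 genes had r of 0.890 (Gja4) to 0.959 (Sema3g), and with the capillary markers 0.888 (Efnb2) to 0.937 (Gja5). Without the 3 libraries these ran from 0.575 (Gja4) to 0.813 (Sema3g) and from 0.259 (Efnb2) to 0.801 (Gja4). Over all libraries the 5 genes thus varied about as closely with venous and capillary markers. For Clu the r with the pan-endothelial mean was 0.434 over all libraries and 0.680 without these 3, within the range of the 5 genes. The SD within an experiment and genotype fell from 1.12 to 0.345 for Efnb2 when that mean was subtracted in each library, from 1.10 to 0.377 for Sox17 and from 1.38 to 0.613 for Gja4. Without the 3 libraries the falls were smaller, from 0.486 to 0.385, from 0.561 to 0.388 and from 0.868 to 0.658. For Clu the SD went from 0.745 to 0.985 over all libraries but from 0.783 to 0.586 without the 3. Alpl (1.25 to 1.30) and Bmx (1.08 to 1.01) hardly moved, also without them (1.28 to 1.39 and 1.10 to 0.976). With the pericyte and smooth muscle markers 7 members had r of 0.624 (Bmx) to 0.710 (Gja5), and Clu and Alpl had 0.300 and 0.092. Without the 3 libraries these 7 ran from 0.429 (Sox17) to 0.584 (Gja5), and Clu and Alpl had 0.208 and -0.188. That list includes Mcam, its most abundant marker, and the part of those cells was not tested. The r with the fibroblast markers was -0.331 for Gja4, -0.221 for Mgp and -0.368 for Clu.

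In the 3 libraries low in Pecam1 the members did not all behave alike. Gja4, Gja5, Efnb2 and Sema3g reached at most 26.5, 19.9, 78.7 and 26.1 TPM there, against medians of 92.7, 70.8, 216 and 65.8 TPM in the other 18. Clu stood at 52.02 to 109 TPM in these libraries, inside its range of 12.2 to 290 TPM in the others, which had a median of 97.6 TPM. In WT replicate 2 of experiment 4 the sum of the leukocyte markers was 589 TPM and that of tumour epithelium markers 272 TPM, where the WT medians were 208 and 4.78 TPM. Whether such cells supplied Clu there was not tested. Mgp stood at 1.12 TPM in that library and at 9.41 and 30.1 TPM in the other two.

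**Figure D4:**
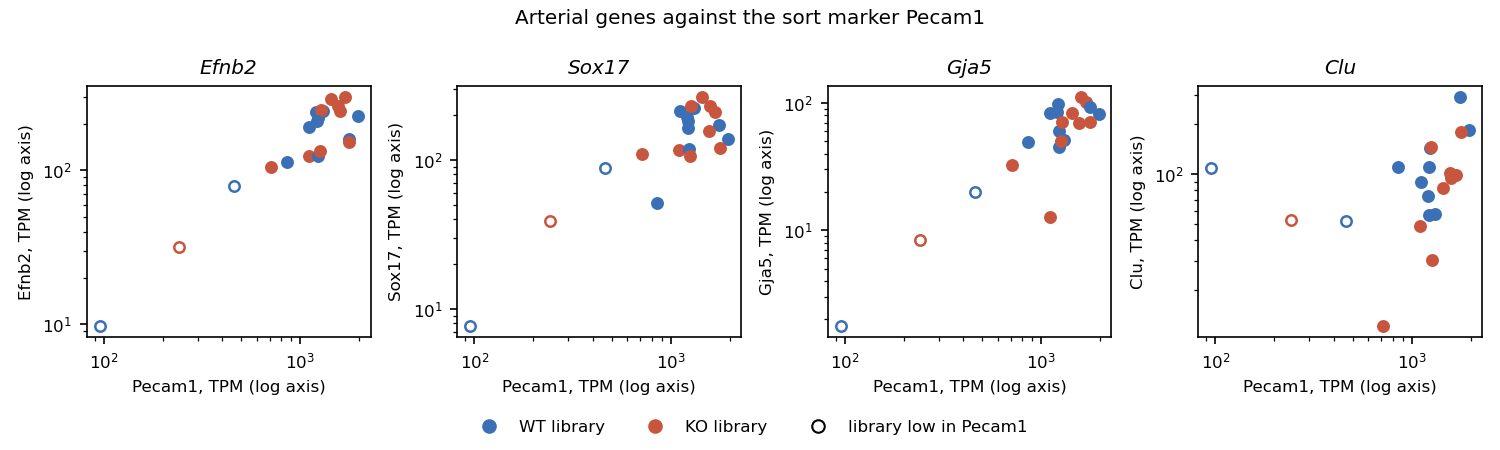
TPM of Efnb2, Sox17, Gja5 and Clu against TPM of Pecam1, each on a log axis, with WT libraries in blue, KO libraries in red and open circles for the 3 libraries low in Pecam1. Efnb2, Sox17 and Gja5 are lowest in WT replicate 2 of experiment 4, at 9.73, 7.66 and 1.77 TPM, where Clu stands at 109 TPM.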

How the data were processed

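Per the labels' protocols, 30 ng of total RNA per sample went into a stranded kit with ribosomal depletion, and paired reads had 150 bases. What the authors deposited is a table of TPM. GRCm38 is the build named in the submitters' processing notes. Aligner and counter: not given in the sources used here. Column totals were 999999.15 to 1000000.63, and no counting interval can be given. Decimal commas were read as points, and 27 date-like gene names were replaced by the symbols of their Ensembl identifiers.

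Columns were assigned by name. The 13503 genes that reached 1 TPM in 10 or more libraries were fitted as log2(TPM + 1), which understates changes of low genes, in limma 3.58.1 (trended, robust prior; statmod 1.5.0; R 4.3.3). Terms were genotype and experiment, p-values were adjusted by Benjamini-Hochberg over all genes, and the threshold was 0.05. The fit was tested on simulated data with independent noise and differences larger than those fitted for the members. That check does not cover differences as small as theirs or libraries that share a tumour. Coordinates come from GENCODE for GRCm38, promoters from RefSeq.

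Genes named are all members, of each list up to 3 with the smallest p and 2 with the highest level, and nearest genes of the members (up to 3 each; those of Bmx are not reported here). Members and lists were chosen with earlier results of these data known.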

Additional observations from a re-analysis of the deposited data

Results flagged for a closer look

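In 20 groups of 4 to 10 libraries the gap between the highest or lowest value and its neighbour was compared with the group's range. Chance passes this test in about 1 of 20 groups if values are normal and groups independent. TPM need not be normal, and for each gene the KO libraries of experiment 2 lie within the group of all KO libraries. The chance rate here is thus not known. The test picked 2 values. Alpl stood at 19.3 TPM in KO replicate 3b of experiment 2, the highest of the 10 KO libraries, and the gap to the next took 0.582 of their range. Shb, the deleted gene, stood at 34.9 TPM in KO replicate 2 of experiment 2, the highest of the 4 KO libraries with that experiment's header, with a gap of 0.861 of the range.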

How the results depend on the processing

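Across 40 alternatives, 21 of them leaving out 1 library each, no member and no gene of the wider arterial list passed the threshold, no member had an unadjusted p under 0.05, and the median of the members ran from -0.23 to 0.33 (-0.23 to 0.17 over the libraries left out in turn). Clu stayed below 0 in all 40. Sox17 was never below 0 but came to 3.19e-07 without WT replicate 2 of experiment 4. The filter at 5 TPM left out Bmx. TPM without read numbers limit what can be said of Bmx and Alpl, the lowest members.

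The other directions were not stable. Without KO replicates 3a and 3b, Gja4 was 0.012, Sema3g 0.17, Mgp 0.52 and Alpl -0.24. Without experiment 2, Sema3g was 0.083, Mgp 1.08 and Alpl -0.17, and without experiment 1 Gja5 was -0.0048. Without the libraries low in Pecam1, Gja5 was -0.097, Bmx -0.045 and Alpl -0.068. With a common pan-endothelial mean, which moved the median of all genes to -0.27, Gja5 was -0.080 and Alpl -0.073. Sema3g was 0.014 with log2(TPM + 0.1), 0.078 with TPM rescaled without mitochondrial and small RNA genes, 0.11 with a common median, 0.086 with quantile normalization and 0.039 with KO replicate 3a or 3b placed in experiment 4. Mgp was 0.15 with log2(TPM + 5), 0.021 with a common median and 0.15 with quantile normalization. Alpl was -0.019 with log2(TPM + 5) and -0.0064 with no experiment term. With 1 library left out, Gja5 ran from -0.23 to 0.30, Efnb2 from -0.036 to 0.41, Sema3g from -0.29 to 0.21, Mgp from -0.46 to 0.15 and Alpl from -0.18 to 0.33, and without a change of sign Gja4 from -0.61 to -0.076, Bmx from 0.039 to 0.41 and Clu from -0.54 to -0.27. The cause was not tested.

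The 2 members that differed between experiments (29.1% of all genes) became 1 with log2(TPM + 0.1) (23.6%), with a common pan-endothelial mean (2.16%) or without experiment 1 (29.6%), 0 without experiment 2 (0.0333%) or with KO replicate 3a placed in experiment 4 (17.3%), and 2 to 5 with 1 library left out. Shb was -0.82 without the libraries low in Pecam1 (exact permutation p = 0.0748), -0.71 without KO replicates 3a and 3b (exact p = 0.0688), -0.57 without experiment 2 (exact p = 0.227) and -0.62 without experiment 4 (exact p = 0.165).

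Whether replicate numbers pair the samples was not settled: in 10 same-numbered pairs the deviations from group means correlated at -0.20 to 0.36, over 0.1 in 2. Those were the pairs of experiment 4 (0.32 and 0.36), where replicate 2 of each genotype was low in Pecam1. In experiment 3, with 2 libraries per group, deviations mirror each other, so both pairs had the same r. The groups are too small for this check to exclude pairing. With the replicate block, Shb was -0.77 (exact permutation p = 0.112), Sema3g 0.22 and Mgp 0.16, and 0 members were called.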
